A study of Mus musculus with 36 samples.

Results

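Mouse glioma cells grown without macrophages were compared 6 h after myelin debris was added and at 0 h. The comparison rests on 6 of the 36 RNA-seq libraries of the series, chosen by their labels: 3 of tumor cells in mono-culture at 6 h and 3 of the same cells at 0 h, numbered 001 to 003 in each group. All 6 come from PDG-Ink4a Recurrent, a single cell line from a brain tumor that recurred in a mouse model. In that model PDGFB, a ligand of the PDGF receptor, is expressed in Nestin-positive progenitors of animals that lack Ink4a/Arf, so every glioma group carries both the driver and the deletion. The 6 h cells received myelin debris, and the 0 h cells are labelled as the control. The same line was also sampled at 24 h, and in co-culture with macrophages grown from bone marrow, and those macrophages were sampled alone. How long the 0 h cultures were kept is not stated, and so an effect of myelin and one of 6 h more in culture cannot be told apart. Whether libraries 001 to 003 are separate cultures is not stated either, and p-values then measure only the spread between these libraries, which may be technical.

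Immediate early genes are transcribed within minutes of a growth factor, serum or stress signal, without new protein being made, and their short-lived transcripts fade when the signal does. They encode transcription factors such as Fos and Egr1, and the MAP kinase pathway that turns them on also induces its own brakes, among them the DUSP phosphatases that strip phosphate from MAP kinases. Myelin is rich in cholesterol: in cells that take up sterol, SREBP2 is held back and the genes of cholesterol synthesis and uptake fall, while oxysterols switch on LXR and its sterol export genes. In macrophages that engulf myelin both arms are well known.

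The 6 libraries held between 7964334 and 14094009 counts. CT010467.1, a clone-named gene kept in the list of ribosomal fragments, took 0.413% to 6.69% of the counts at 6 h and 0.399% to 13.4% at 0 h, highest in library 001 of each time. Libraries 001 also stood apart from 002 and 003 on the first principal component of the 18 tumor cell libraries, which held 52.0% of the variance. Libraries of the same number deviated together (residual correlations of 0.786, 0.603 and 0.438 for numbers 001, 002 and 003). So did 6 h library 003 with 0 h library 002 (0.562) and 6 h library 002 with 0 h library 003 (0.596). The values thus set 001 apart but do not show that 002 and 003 pair by number. The number was kept as a block because the rule of the comparison set it. Of the markers of the line, Pdgfra lay at 109, 142 and 144 CPM (counts scaled to a common library total) at 6 h and at 110, 120 and 120 CPM at 0 h, and Sox2 at 16.3 to 24.0 CPM at 6 h and 15.7 to 18.3 CPM at 0 h. Gfap, an astrocyte marker, was under 1 CPM in every library. The 8 markers of the astrocyte list nonetheless summed to 345 to 489 CPM at 6 h and 324 to 430 CPM at 0 h. The 8 neuron markers summed to 118 to 218 CPM at 6 h and 138 to 264 CPM at 0 h. The oligodendrocyte markers summed to 2.51 to 9.30 CPM at 6 h and 3.46 to 5.32 CPM at 0 h.

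Macrophage transcripts were present in glioma libraries labelled as mono-culture, and how they came there was not tested. The summed level of 20 macrophage markers was 17.1, 1564 and 571 CPM in 6 h libraries 001, 002 and 003, and 14.3, 335 and 446 CPM in the 0 h libraries of the same numbers. Both libraries 001 were thus nearly free of it, with 6 of the 20 markers at 0 at 6 h and 4 at 0 h, and 6 h library 002 held the most. The mean was 717 ± 784 CPM at 6 h and 265 ± 224 CPM at 0 h (SD, n = 3 each), and the difference gave p = 0.4 by an exact two-sided permutation test, where 3 against 3 cannot go below 0.1. Read from 50 genes abundant in macrophages, the 6 h libraries held 0.0470%, 3.81% and 1.40% of the macrophage level, and the 0 h libraries 0.0310%, 0.851% and 1.08%. Genes over 20 times higher in macrophages alone than in glioma cells alone at 0 h are called macrophage-rich here and are given apart from the others.

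At 6 h 35 genes differed from 0 h at an adjusted p under 0.05, out of 13603 tested by edgeR's quasi-likelihood test with Benjamini-Hochberg adjustment. That is 0.257% of the genes: 22 were lower (0.162%) and 13 higher (0.0956%). Among the 22 that fell were the phosphatases Dusp8 and Dusp1, the transcription factors Egr1, Egr3 and Klf6, the phosphatase subunit Ppp1r15a, the kinase Plk2, the matrix protein Ccn1 and the prostaglandin synthase Ptgs2. Of the 13 that rose, 6 were macrophage-rich, and the other 7 encode an RNA-binding protein (Ewsr1), an RNA helicase (Ddx3x), a homeobox factor (Six4), and proteins of vesicles, the lysosome and ubiquitin (Rab8b, Rragd, Cdip1, Rnf149). Changes were modest, with 10 of the 35 reaching 2-fold, of which 4 fell and none was among those 7. The median log2 change of all genes tested was 0.0016, and 1584 genes had an unadjusted p under 0.05.

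The count of 35 depended on single libraries. Leaving out 6 h library 003 gave 134 genes and leaving out 6 h library 001 gave 114, against 4 without 6 h library 002, 9 without 0 h library 003 and 4 without 0 h library 002. Without both libraries 001 it was 856 (3.11% of 13452 genes higher and 3.26% lower), without both libraries 002 it was 0 and without both libraries 003 it was 8. Without the library number as a block 1 gene passed. DESeq2 called 188 genes (1.38%), 91 higher and 97 lower, among them all 35. Dusp8, Ccn1 and Ppp1r15a passed in each of the 6 fits that left out 1 of the 6 libraries, and Egr1 and Egr3 in none of them.

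**Figure D1:**
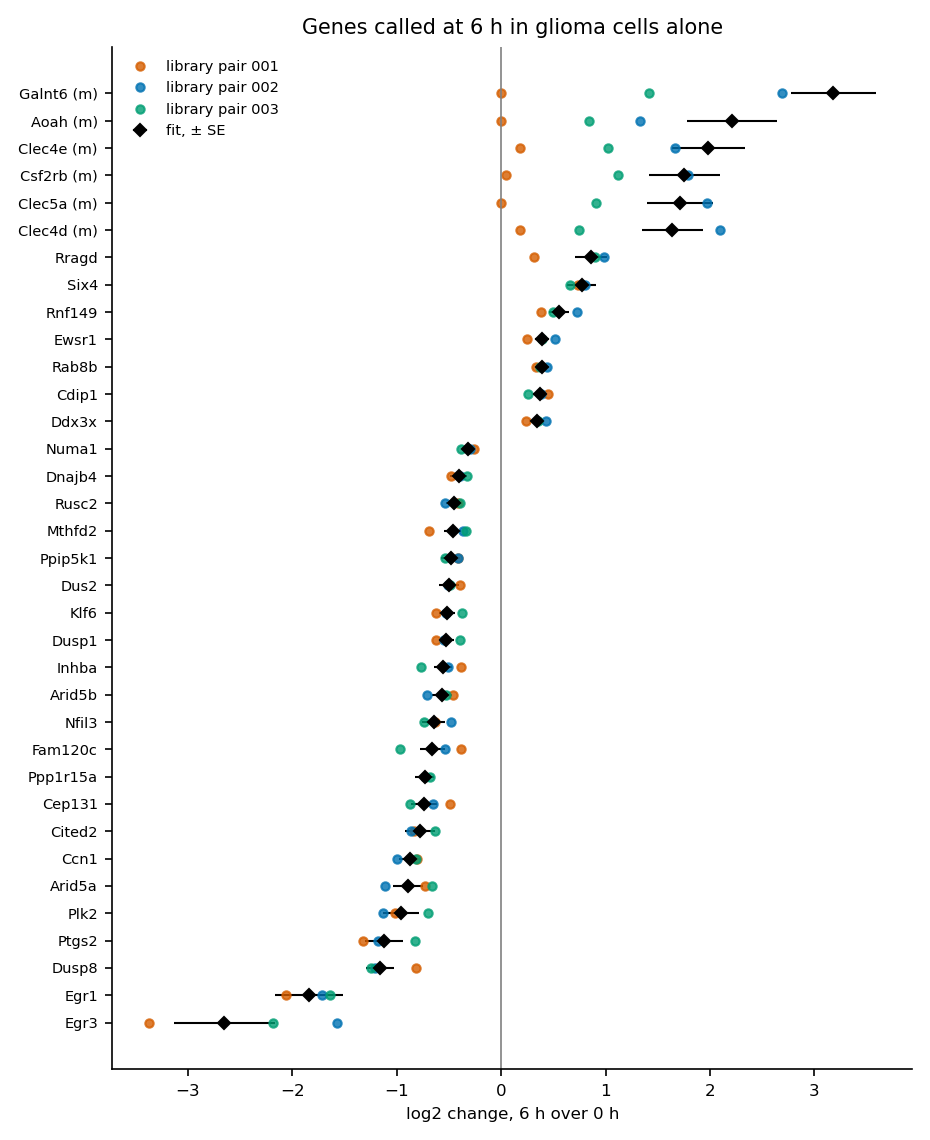
Log2 change at 6 h against 0 h in glioma cells alone for the 35 genes that passed, grouped into those that fell and those that rose. Diamonds with bars are the fitted change ± SE, small points are the 3 pairs of libraries with the same number, and (m) marks macrophage-rich genes. All 22 genes that fell lie below 0 in all 3 pairs.

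The promoters of several of these genes hold the cAMP response element, the palindrome TGACGTCA, which reads the same on both strands and is bound by CREB and ATF factors. It stood in the 250 bases before the start of 5 of the 20 falling genes matched in RefSeq (25%), against 2.77% of the 10166 tested genes with a promoter entry and 1.55% of all 32851 entries. Those 5 are Dusp8, which has a pair of copies, Ppp1r15a, Dusp1, Plk2 and Dus2. The 150 bases before the start are shown for the first 4 and for Ccn1, which has none, with the element in capitals, 5′ to 3′ along each gene, from RefSeq on GRCm38.p6 (chr7:142095285-142095434, minus strand; chr7:45526269-45526418, minus strand; chr17:26508473-26508622, minus strand; chr13:110394894-110395043, plus strand; chr3:145649986-145650135, minus strand).
Dusp8: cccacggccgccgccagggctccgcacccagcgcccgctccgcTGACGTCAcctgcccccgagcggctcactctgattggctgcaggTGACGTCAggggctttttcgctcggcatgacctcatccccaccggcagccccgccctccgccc
Ppp1r15a: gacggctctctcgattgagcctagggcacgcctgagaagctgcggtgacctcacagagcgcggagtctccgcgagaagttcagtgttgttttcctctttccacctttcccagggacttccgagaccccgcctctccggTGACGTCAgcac
Dusp1: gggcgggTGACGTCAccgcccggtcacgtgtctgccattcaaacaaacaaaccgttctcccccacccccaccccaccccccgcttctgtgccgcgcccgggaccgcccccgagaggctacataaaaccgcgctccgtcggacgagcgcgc
Plk2: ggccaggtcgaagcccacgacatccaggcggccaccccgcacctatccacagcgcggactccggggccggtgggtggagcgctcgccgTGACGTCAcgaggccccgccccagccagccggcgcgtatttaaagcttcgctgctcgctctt
Ccn1: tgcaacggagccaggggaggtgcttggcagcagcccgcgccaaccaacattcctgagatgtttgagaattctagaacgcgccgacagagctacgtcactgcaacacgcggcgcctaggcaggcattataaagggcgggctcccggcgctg
The element begins 107 and 63 bases before the start of Dusp8, 12 before Ppp1r15a, 143 before Dusp1 and 62 before Plk2. In the deposited table Dusp8, Dusp1 and Dus2 extend upstream of their RefSeq starts. The element was picked from 12 motifs after their shares were seen. Of the others, the CArG box of serum response factor and the AP-1 site TGANTCA were in 0 of the 20 windows (1.12% and 4.42% of tested genes), the CCAAT box in 7, or 35% (36.7% of tested genes), and the TEAD site GGAATG in those of Ccn1 and Numa1, or 10% (10.3%). Above the share of tested genes were also the ATF4 composite element TGATGNAA in 2, or 10% (2.02%), the xenobiotic response element GCGTG in 13, or 65% (45.7%), the E-box CACGTG in 3, or 15% (8.39%), the hypoxia response element ACGTG, whose letters lie within the E-box, in 6, or 30% (21.8%), and the antioxidant response element TGACNNNGC in 3, or 15% (12.0%). The sterol regulatory element TCACNCCAC (0.944% of tested genes) and the E2F site TTTCCCGC (1.80%) were in none. These are matches of letters on either strand, and binding was not measured.

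Among the brakes of MAP kinase signalling, Dusp8, a phosphatase that acts on JNK and p38, had the smallest p of all genes tested. On mm10 the table places it on chromosome 7, 142079490 to 142095843. Its level was 12.3, 12.2 and 10.7 CPM in 6 h libraries 001, 002 and 003, against 22.5, 29.4 and 26.8 CPM in the 0 h libraries. The groups stood well apart, and the log2 change was -1.16 ± 0.13 (SE, adjusted p = 0.0039). Dusp1, the nuclear phosphatase of ERK, JNK and p38 (chromosome 17, 26505590 to 26562128), fell in each pair: 90.7, 177 and 178 CPM at 6 h, against 140, 259 and 234 CPM at 0 h. Here libraries 001 were low at both times, so 6 h libraries 002 and 003 overlapped 0 h library 001, and the change showed within numbers (log2 -0.52 ± 0.07, adjusted p = 0.011). Dusp1 overlaps Ergic1, which lies on the other strand at 422 CPM at 6 h and 420 CPM at 0 h, and whether counting used strand is not given. Of 18 genes fixed as MAP kinase feedback 17 were testable, with a median log2 change of -0.32. Estimates lay below 0 for 12 of them and above 0 for 5. Only Dusp8 and Dusp1 passed, and none was called higher. Errfi1, an inhibitor of the EGF receptor, lay at 54.7, 57.4 and 66.8 CPM at 6 h and 149, 115 and 97.3 CPM at 0 h without passing (-1.06 ± 0.29, adjusted p = 0.129). For Dusp6 and Spry4, classic ERK feedback genes, the log2 values were -0.09 ± 0.26 and 0.05 ± 0.12.

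Of 24 immediate early transcription factors 23 were testable, and 3 of them fell. The median log2 change of the list was -0.57. All 23 estimates lay below 0, against a median of 0.0016 for all genes tested. Egr1, a zinc finger factor turned on by ERK, measured 57.7, 129 and 104 CPM at 6 h and 244, 429 and 324 CPM at 0 h. Every 6 h library lay below every 0 h library (log2 -1.84 ± 0.32, adjusted p = 0.035). Its relative Egr3 measured 7.02, 7.26 and 5.24 CPM at 6 h and 82.2, 23.7 and 27.4 CPM at 0 h. The groups did not overlap, but 0 h library 001 was far above the other two and the pair values ran from -3.38 to -1.58 (fitted log2 -2.65 ± 0.49, adjusted p = 0.039). Klf6, a Krüppel-like factor (chromosome 13, 5861482 to 5870394), measured 192, 263 and 274 CPM at 6 h and 298, 380 and 357 CPM at 0 h. It fell by 0.52 ± 0.08 on the log2 scale (adjusted p = 0.018), again with no overlap.

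Other members had wide spreads or just missed the threshold. Jun, a subunit of AP-1, lay at 99.8, 137 and 174 CPM at 6 h and 185, 260 and 249 CPM at 0 h (log2 -0.78 ± 0.16, adjusted p = 0.062). Atf3, a stress factor of the same family, lay at 5.69, 6.62 and 3.46 CPM at 6 h and 23.3, 17.7 and 12.5 CPM at 0 h (-1.81 ± 0.39, adjusted p = 0.070). In both genes no library of 6 h reached the lowest of 0 h. Fos, the partner of Jun, lay at 7.55, 75.4 and 40.4 CPM at 6 h and 28.8, 134 and 75.6 CPM at 0 h (-1.06 ± 0.62, adjusted p = 0.563). Its groups overlapped, and its number 001 libraries were the lowest of each time. Egr2 gave -2.29 ± 0.57 (adjusted p = 0.106) and Nr4a1, an orphan nuclear receptor, -1.80 ± 0.59 (adjusted p = 0.232). Without libraries 001, 9 of these 23 genes and 5 of the 17 feedback genes passed, all lower, Jun, Atf3, Egr2 and Nr4a1 among them, beside 3.26% of all genes.

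**Figure D2:**
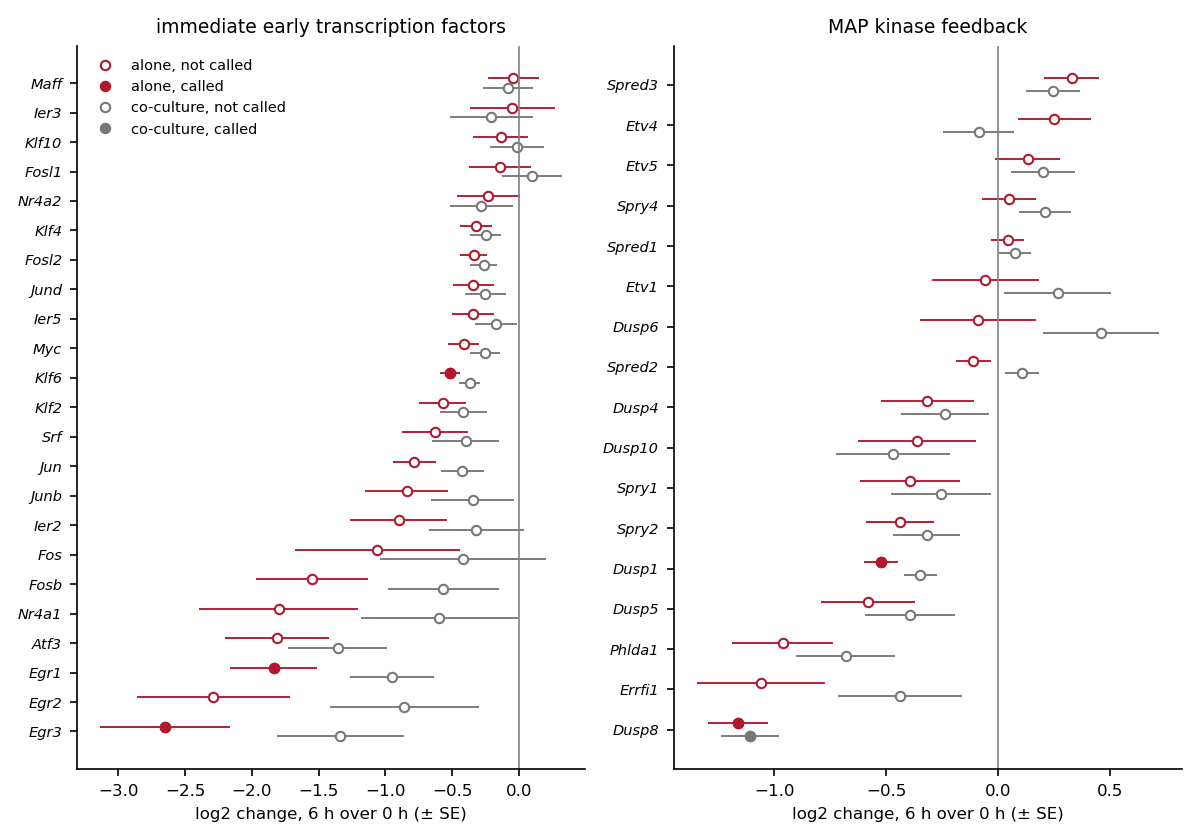
Log2 change at 6 h against 0 h for the 23 immediate early transcription factors and the 17 MAP kinase feedback genes, in glioma cells alone (red) and in co-culture (grey), ± SE, with filled points for adjusted p under 0.05. Alone, all 23 of the first list lie below 0 and 3 are filled, and in the second list Dusp8 and Dusp1 are filled.

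Ccn1, Ptgs2 and Inhba fell as well. Ccn1, a matrix protein induced by serum and by YAP with TEAD (chromosome 3, 145646976 to 145649981), measured 498, 464 and 517 CPM at 6 h and 874, 929 and 912 CPM at 0 h. All 0 h libraries lie above all 6 h libraries (log2 -0.87 ± 0.11, adjusted p = 0.0039). It was the only one of 22 YAP and TEAD targets to pass, beside a list median of -0.07. Its relative Ccn2 lay at 1034, 962 and 1201 CPM at 6 h and 1137, 1870 and 1931 CPM at 0 h (-0.58 ± 0.16, adjusted p = 0.149). Ptgs2, or COX-2, which makes the precursor of prostaglandins (chromosome 1, 150100031 to 150108227), measured 211, 287 and 347 CPM at 6 h and 532, 653 and 617 CPM at 0 h. The groups were far apart (log2 -1.12 ± 0.18, adjusted p = 0.029), and Ptgs2 was the only one of 30 testable genes of the NF-κB and cytokine list to pass. The median of that list was 0.24, with 24 of 30 estimates above 0. Without libraries 001 it had 9 genes higher, beside 3.11% of all genes, and 2 lower, beside 3.26%. Of the 9, 7 were not macrophage-rich. The libraries left in that fit carried the macrophage RNA, and its part in these counts was not tested. Inhba, the subunit of activin A, measured 207, 171 and 167 CPM at 6 h and 271, 244 and 284 CPM at 0 h (-0.55 ± 0.09, adjusted p = 0.025), the only one of 20 testable genes of the Id, BMP and TGF-β list to pass.

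Ppp1r15a, Mthfd2, Plk2, Cited2 and Dnajb4 also fell. Ppp1r15a (GADD34) directs phosphatase 1 to eIF2α and so ends the integrated stress response. On chromosome 7, 45522916 to 45526268, it measured 22.2, 36.2 and 34.1 CPM at 6 h and 37.5, 60.8 and 55.4 CPM at 0 h. Each number fell by about the same factor while library 001 was low at both times, and the groups did not overlap (log2 -0.73 ± 0.09, adjusted p = 0.0039). Mthfd2, a mitochondrial folate enzyme driven by ATF4, measured 69.0, 71.3 and 68.4 CPM at 6 h and 112, 92.4 and 86.6 CPM at 0 h (-0.46 ± 0.08, adjusted p = 0.030). These were the 2 of 23 integrated stress response genes to pass, and the list's median was -0.16 with 20 of 23 estimates below 0. Without libraries 001, 8 of the 23 were lower and 1 higher, beside 3.26% and 3.11% of all genes. Plk2, a polo-like kinase induced by serum and by p53 (chromosome 13, 110395046 to 110400844), measured 125, 146 and 182 CPM at 6 h and 254, 321 and 296 CPM at 0 h. No libraries overlapped (-0.96 ± 0.17, adjusted p = 0.038), and it was the only one of 18 testable genes of the cyclin D and CDK inhibitor list to pass. Cited2, which competes with HIF-1 for the coactivators CBP and p300, measured 77.6, 94.7 and 117 CPM at 6 h and 139, 173 and 182 CPM at 0 h (-0.78 ± 0.14, adjusted p = 0.035). Dnajb4, an HSP40 co-chaperone, fell by 0.41 ± 0.08 (adjusted p = 0.039), 1 of 17 heat shock genes.

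**Figure D3:**
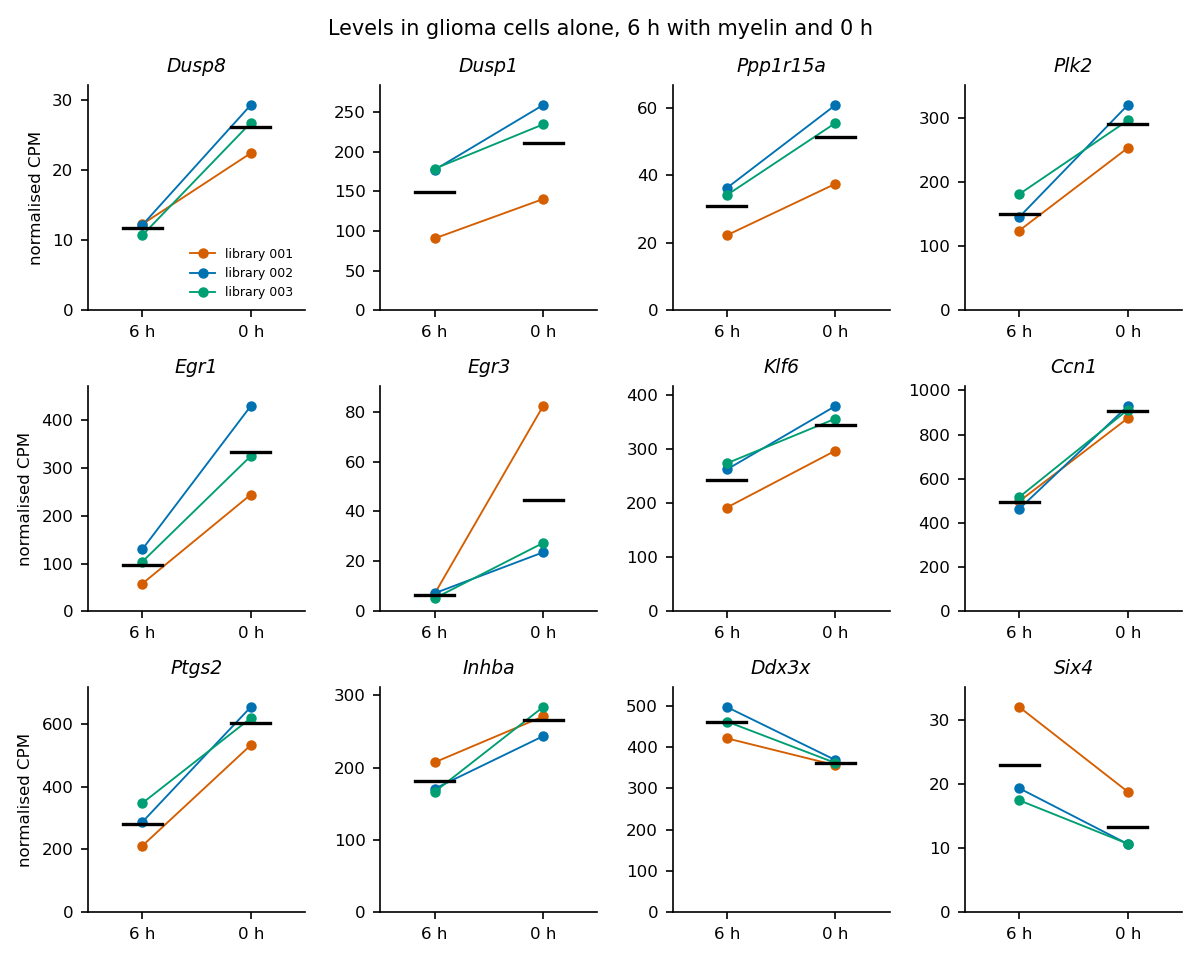
Normalised level (CPM) of 12 called genes in glioma cells alone, 6 h on the left of each panel and 0 h on the right, with lines joining libraries of the same number and a bar at each mean. Dusp8, Dusp1, Ppp1r15a, Plk2, Egr1, Egr3, Klf6, Ccn1, Ptgs2 and Inhba are lower at 6 h and Ddx3x and Six4 higher in every pair.

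The remaining genes that fell were DNA- and RNA-binding regulators and a few enzymes and structural proteins. Arid5a, which binds and stabilises inflammatory mRNAs, measured 15.8, 10.8 and 11.9 CPM at 6 h and 26.7, 24.6 and 19.4 CPM at 0 h (log2 -0.89 ± 0.15, adjusted p = 0.029). Arid5b, its relative and a partner of the demethylase PHF2, fell by 0.57 ± 0.10 (adjusted p = 0.029). Nfil3, a repressor tied to the circadian clock, fell by 0.65 ± 0.11 (adjusted p = 0.030), the only one of 18 testable clock genes to pass. The median of the clock list was -0.22, with 15 of 18 estimates below 0. Without libraries 001, 7 of the 18 were lower and 1 higher, beside 3.26% and 3.11% of all genes. Cep131, a protein of centriolar satellites, fell by 0.74 ± 0.13 and Fam120c by 0.66 ± 0.12. Ppip5k1, which makes inositol pyrophosphates, fell by 0.48 ± 0.09, but it overlaps Map1a (435 CPM at 6 h and 384 CPM at 0 h) on the other strand. Dus2, a tRNA dihydrouridine synthase that overlaps Ddx28, fell by 0.50 ± 0.09. Rusc2 fell by 0.45 ± 0.07 and Numa1, a spindle protein, by 0.31 ± 0.06. Of all 22, 19 had no overlap between the groups, beside 5.64% of all genes tested whose 6 h libraries all lay below those of 0 h.

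The 7 genes that rose and are not macrophage-rich changed by less than 2-fold. Ddx3x, a DEAD-box helicase used in translation (X chromosome, 13280970 to 13294052), measured 421, 497 and 462 CPM at 6 h and 356, 369 and 362 CPM at 0 h (log2 0.34 ± 0.06, adjusted p = 0.030). Ewsr1, an RNA-binding protein of the FET family (chromosome 11, 5069689 to 5099266), measured 217, 243 and 238 CPM at 6 h and 182, 169 and 181 CPM at 0 h (0.39 ± 0.07, adjusted p = 0.029). Both had no overlap and similar rises in each number. Six4, a homeobox transcription factor (chromosome 12, 73099609 to 73113456), measured 32.0, 19.4 and 17.5 CPM at 6 h and 18.8, 10.7 and 10.7 CPM at 0 h (0.77 ± 0.14, adjusted p = 0.032). Library 001 was high at both times, and 6 h library 003 lay below 0 h library 001. Rragd, a Rag GTPase that couples amino acids to mTORC1 on the lysosome, measured 6.36, 14.5 and 15.5 CPM at 6 h and 4.93, 6.86 and 7.80 CPM at 0 h (0.86 ± 0.16, adjusted p = 0.032). Rab8b, a GTPase of vesicle traffic, rose by 0.39 ± 0.07, Cdip1, a protein of late endosomes, by 0.37 ± 0.06, and the ubiquitin ligase Rnf149 by 0.55 ± 0.09. Cdip1 overlaps Hmox2, which lies on the other strand at 41.3 CPM at 6 h and 41.1 CPM at 0 h.

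Macrophages also express several of these 7 genes. Taking the macrophage share of each library times the level in macrophages alone at 0 h gives, for Rab8b, 0.177, 14.4 and 5.29 CPM in the 6 h libraries against 0.117, 3.21 and 4.07 CPM in the 0 h libraries. Its total was 66.6, 84.0 and 79.4 CPM at 6 h and 52.6, 61.5 and 61.0 CPM at 0 h. In number 001, where the macrophage markers were near 0, all 7 genes were also higher at 6 h, for instance Rab8b with 66.6 CPM against 52.6 CPM. For Six4 the same product was under 0.01 CPM in every library. These products are set beside the levels only, and the part of macrophage RNA in the rises was not tested for any of the 7 genes.

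The 6 macrophage-rich genes that passed were Galnt6, Clec4e, Clec4d, Clec5a, Aoah and Csf2rb, named after their values were seen. Clec4e, Clec4d and Clec5a are lectin receptors of myeloid cells, Csf2rb is the shared receptor chain of GM-CSF and IL-3, Aoah inactivates lipopolysaccharide and Galnt6 begins O-glycosylation. Clec4d measured 0.132, 22.4 and 11.2 CPM at 6 h and 0, 4.46 and 6.23 CPM at 0 h, and Csf2rb 0.132, 12.7 and 7.10 CPM at 6 h and 0.0986, 2.98 and 2.74 CPM at 0 h. Galnt6 measured 0, 9.18 and 3.89 CPM at 6 h and 0, 0.579 and 0.830 CPM at 0 h. In all 3 the rise was seen in numbers 002 and 003, and library 001 was at or near 0 at both times. The marker sum was also lowest in libraries 001, and in number 003 it was 571 CPM at 6 h and 446 CPM at 0 h. Across the 432 macrophage-rich genes tested, 401 had a log2 change above 0 and the median was 0.99. In co-cultured glioma cells their median was -0.27. These genes were picked for low levels in the same 0 h libraries, which favours a rise from them. The co-culture change uses none of those libraries, so the medians cannot be set against each other. The cells had been sorted, and the part of macrophage RNA in the result was not tested. Fewer cells of a type and less RNA per cell cannot be told apart in bulk libraries.

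**Figure D4:**
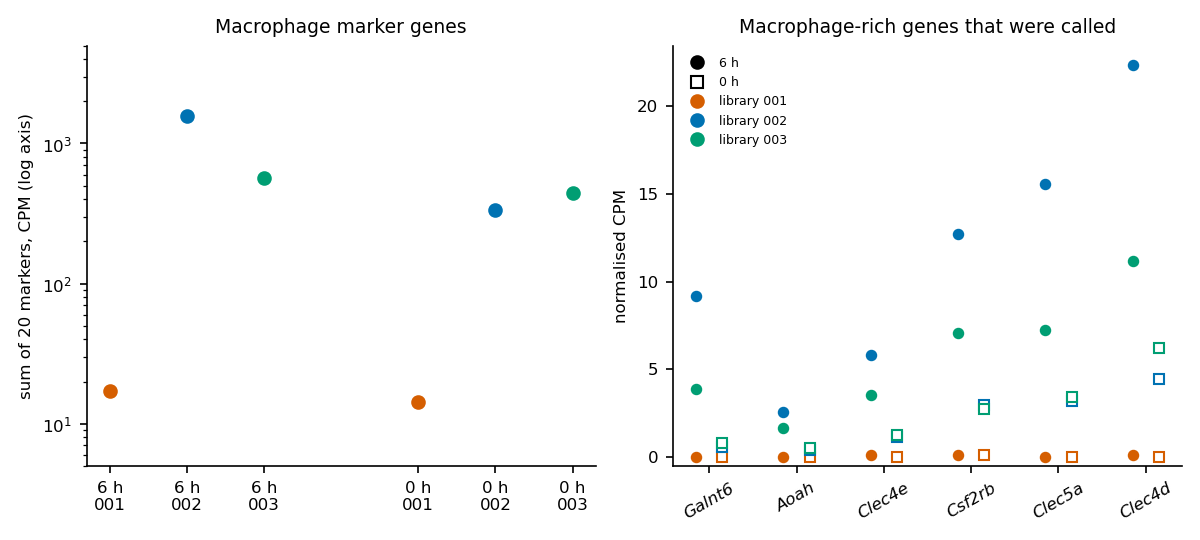
Left, summed level of 20 macrophage markers (CPM, log axis) in each glioma library grown alone, 6 h left of 0 h. Right, levels of the 6 called macrophage-rich genes in the same libraries. Libraries 001 sit near the bottom at both times, and 6 h library 002 is the highest with 1564 CPM.

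The genes of sterol handling, which cells are known to adjust when cholesterol arrives, did not pass in glioma cells at 6 h. None of 9 genes of the mevalonate arm, 12 from squalene to cholesterol, 14 of sterol sensing and uptake, 10 LXR targets or 14 of fatty acid synthesis was called, with medians of -0.04, 0.01, 0.01, 0.10 and -0.05 on the log2 scale. In macrophages alone over the same 6 h, 7 of the 9, 10 of the 12, 5 of the 14 and 7 of the 14 fatty acid genes were lower (2.76% of 14776 genes were) and 3 of the 10 LXR targets higher (2.10% were). The change differed between glioma cells and macrophages for 174 genes (1.18%), with 133 more positive in glioma cells (0.900%) and 41 more negative (0.277%). The 174 became 46 without glioma 0 h library 002, 58 without glioma 6 h library 002 and 286 without glioma 6 h library 003. It became 108, 109 and 99 without macrophage 0 h libraries 002 and 003 and 6 h library 003, and 528 and 0 without numbers 001 and 002. Without the block it was 14. Among the more positive were 5 of the mevalonate arm, 9 of the squalene arm, 3 of sterol sensing and 2 of fatty acid synthesis, and among the more negative 2 LXR targets. The 133 more positive genes also held 8 of the 20 macrophage markers. The part of macrophage RNA in that count was not tested.

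Hmgcs1, an early synthase of the mevalonate arm, measured 610, 435 and 446 CPM in glioma cells at 6 h and 534, 394 and 355 CPM at 0 h (log2 0.22 ± 0.09, adjusted p = 0.310). Macrophages had 85.0, 82.4 and 91.6 CPM at 6 h and 243, 292 and 316 CPM at 0 h (-1.71 ± 0.22, adjusted p = 4.4e-05). Glioma libraries of the 2 times overlapped while macrophage libraries were far apart, and the difference of the changes was 1.93 ± 0.30 (adjusted p = 0.0024). Insig1, which holds SREBP in the endoplasmic reticulum when sterol is ample, measured 202, 172 and 166 CPM in glioma cells at 6 h and 192, 177 and 157 CPM at 0 h, against 55.7, 38.4 and 47.2 CPM at 6 h and 128, 161 and 162 CPM at 0 h in macrophages. Its change differed by 1.72 ± 0.31 (adjusted p = 0.0053). Abca1, which exports cholesterol to apolipoproteins and is an LXR target, measured 65.8, 100 and 76.3 CPM in glioma cells at 6 h and 81.2, 69.6 and 81.9 CPM at 0 h, against 204, 134 and 212 CPM at 6 h and 58.1, 23.3 and 58.6 CPM at 0 h in macrophages. That difference was -1.97 ± 0.30 (adjusted p = 0.0024). Counted over numbers 002 and 003 alone, the mevalonate, squalene, LXR and fatty acid synthesis lists still had 0 calls in glioma cells, and 2 of the 14 genes of sterol sensing and uptake were higher, beside 3.11% of all genes. At 24 h against 0 h, 7 of the 10 LXR targets were higher in glioma cells alone and 0 lower (median 0.89), beside 12.9% of all genes higher. The part of macrophage RNA in that count was not tested.

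**Figure D5:**
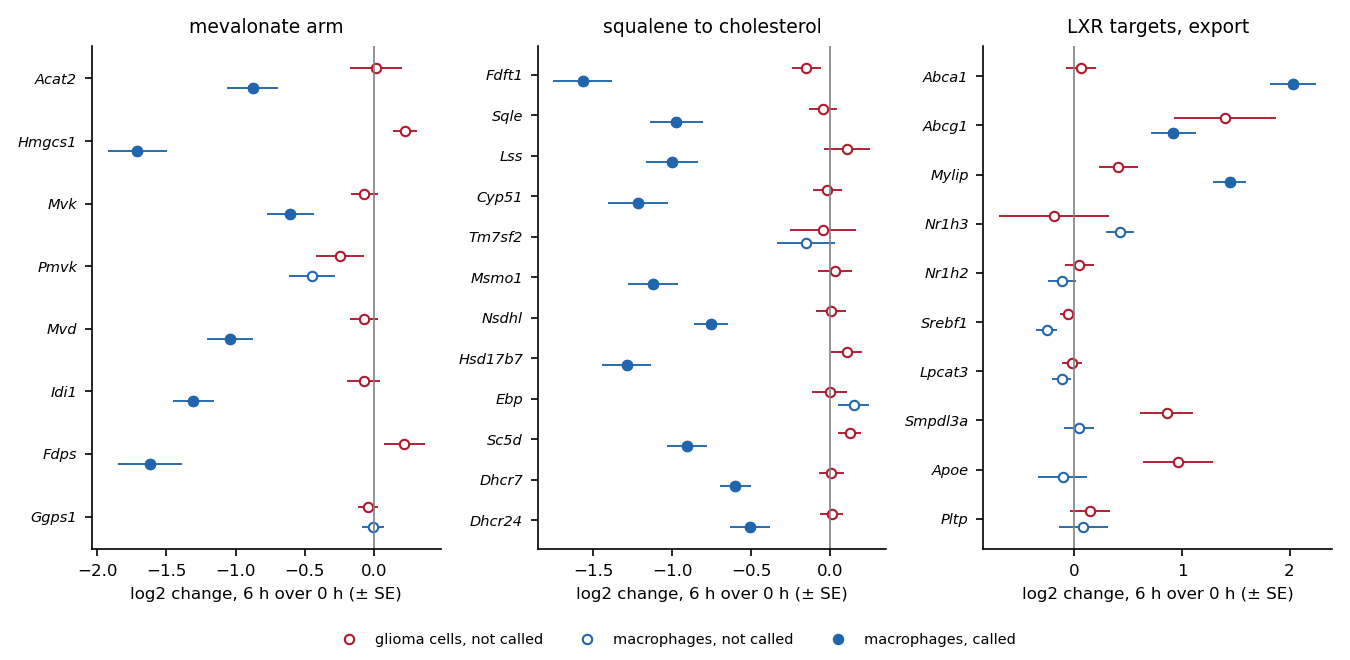
Log2 change at 6 h against 0 h, ± SE, for genes of the mevalonate arm, the squalene arm and LXR targets, in glioma cells alone (red) and macrophages alone (blue), with filled points for adjusted p under 0.05. No glioma point is filled, and most blue points of the first 2 lists lie below 0.

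Of the 22 genes that fell in glioma cells, 4 also fell in macrophages (Dusp1, Mthfd2, Fam120c and Numa1), beside 2.76% of all genes. Of the 7 that rose 3 also rose there (Ewsr1, Rab8b and Rragd), beside 2.10% of all genes. The log2 changes in macrophages were -0.72 ± 0.16 for Dusp1 and 0.76 ± 0.17 for Rragd. The changes differed between cell types for 1 of the 22, beside 0.277% of all genes more negative in glioma cells. That gene was Ppp1r15a. In macrophages it measured 52.9, 33.1 and 39.8 CPM at 6 h and 36.0, 39.2 and 28.9 CPM at 0 h, with overlap, and the difference was -0.99 ± 0.20 (adjusted p = 0.0097). Of immediate early transcription factors that did not pass in glioma cells themselves, Jun, Egr2 and Atf3 had a more negative change than in macrophages, by -0.87 ± 0.19, -2.38 ± 0.59 and -2.11 ± 0.38 (adjusted p = 0.015, 0.045 and 0.0053).

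In co-cultured glioma cells, which share no library with those grown alone, all 22 falling genes had a log2 change below 0 and all 7 rising genes one above 0. Both cultures were tested in the same fit, with a common block and a common estimate of spread, so their calls are not independent. The median over the 22 was -0.65 alone and -0.53 in co-culture, and over the 7 it was 0.39 alone and 0.46 in co-culture. Co-culture had 28 calls (0.206% of genes), 17 lower (0.125%) and 11 higher (0.0809%). Of the 35 genes called alone, 12 were called there too and in the same direction, which is 34.3% of the calls alone and 42.9% of those in co-culture. The 12 were Dusp8, Ccn1, Ppp1r15a, Inhba, Rusc2, Arid5b, Nfil3, Numa1, Dnajb4, Cdip1, Ewsr1 and Ddx3x. Dusp8 measured 13.7, 11.1 and 10.7 CPM at 6 h and 23.6, 25.6 and 27.9 CPM at 0 h in co-culture (log2 -1.11 ± 0.13, adjusted p = 0.0028). Egr1 measured 98.7, 140 and 135 CPM at 6 h and 176, 277 and 284 CPM at 0 h there (-0.95 ± 0.32, adjusted p = 0.237), and Ptgs2 gave -0.79 ± 0.18 (adjusted p = 0.092). The immediate early factors had a median of -0.34 in co-culture with 0 called, and the feedback genes -0.24 with 1 called.

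No gene's 6 h change was called different between glioma cells alone and in co-culture by edgeR, where 482 of 13603 genes had an unadjusted p under 0.05 and the smallest adjusted p was 0.709, nor by DESeq2. Leaving out 6 h library 003 of the cells alone gave 70 such genes. For Egr1 the mono-culture change minus the co-culture change was -0.89 ± 0.45 and for Egr3 -1.31 ± 0.68, and for Dusp8 and Ccn1 it was -0.05 ± 0.19 and -0.06 ± 0.15. Of the macrophage-rich genes, Galnt6 gave 2.48 ± 0.51 (adjusted p = 0.709).

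At 24 h the comparison with 0 h shares its 0 h libraries with the one at 6 h, and the comparison with 6 h shares its 6 h libraries, so their values are set side by side only. Against 0 h, 15.0% of genes were lower at 24 h and 12.9% higher, and 28.1% differed between 24 h and 6 h. That last share is 3819 genes, against 2439 and 2084 without 24 h libraries 002 and 003, 2093 without 6 h library 003, 1573 and 257 without numbers 002 and 003, and 1642 without the block. Ptgs2 measured 532, 653 and 617 CPM at 0 h, 211, 287 and 347 CPM at 6 h and 165, 183 and 189 CPM at 24 h, and its change at 24 h against 6 h was -0.61 ± 0.18 (adjusted p = 0.023). Plk2 measured 69.7, 139 and 121 CPM at 24 h (-0.49 ± 0.18 against 6 h, adjusted p = 0.0496). Both thus had their lowest means at 24 h. Dusp8 measured 11.7, 14.8 and 15.2 CPM at 24 h and Ccn1 402, 506 and 546 CPM, with changes against 6 h of 0.25 ± 0.14 and -0.04 ± 0.11 that did not pass.

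Other genes were back near their 0 h level at 24 h, or past it. Ewsr1 measured 164, 171 and 171 CPM and Ddx3x 332, 362 and 328 CPM, which against 6 h is -0.46 ± 0.07 (adjusted p = 0.00029) and -0.43 ± 0.06 (adjusted p = 0.00022). Rnf149 fell by 0.56 ± 0.09 and Rragd by 0.61 ± 0.15 between 6 h and 24 h. Ppip5k1, at 13.1, 13.5 and 11.7 CPM at 6 h, measured 20.4, 20.4 and 21.2 CPM at 24 h (0.70 ± 0.09, adjusted p = 0.00010). Its 24 h libraries all lay above those of 0 h, at 17.7, 18.3 and 17.4 CPM. Six4 kept a raised level, with 27.2, 23.6 and 19.9 CPM at 24 h (0.85 ± 0.14 against 0 h, adjusted p = 0.00062). Of the immediate early factors 15 of 23 were lower at 24 h than at 0 h, with a median of -0.99. Of the feedback genes 12 of 17 were lower, with a median of -0.67, and of all genes tested 15.0% were.

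The interferon, S phase and ribosome biogenesis lists had 0 calls at 6 h. Of 24 type I interferon response genes 23 were higher at 24 h (median log2 change 1.85 against 0 h, beside 12.9% of all genes higher). At 6 h the median was 0.47 with 20 above 0. The macrophage marker sum was 18.6, 1780 and 2300 CPM in the 24 h libraries, against 14.3, 335 and 446 CPM at 0 h. The part of macrophage RNA in the 24 h count was not tested. Stat2, a subunit of the interferon-activated factor ISGF3, measured 44.8, 55.4 and 49.8 CPM at 0 h, 69.9, 97.0 and 90.5 CPM at 6 h and 173, 172 and 167 CPM at 24 h. The 6 h libraries all lay above those of 0 h, but the test was not passed (0.79 ± 0.21, adjusted p = 0.124). Without libraries 001, 14 of the 24 passed at 6 h, all higher and none macrophage-rich, beside 3.11% of all genes. Numbers 002 and 003, on which that fit rests, carried the macrophage RNA, and its part in this count was not tested. Of 26 S phase genes 24 were lower at 24 h (median -1.17, beside 15.0% of all genes lower), with a median of -0.36 at 6 h, and of 30 ribosome biogenesis genes 30 were lower at 24 h (-0.60), with a median of 0.09 at 6 h.

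Oxidative stress genes of the NRF2 list had a median of 0.18 at 6 h and 0 of 21 calls. Hmox1, which breaks down heme, measured 102, 294 and 309 CPM at 6 h and 129, 130 and 137 CPM at 0 h, so libraries 002 and 003 were raised and library 001 was not (log2 0.71 ± 0.24, adjusted p = 0.234). Without libraries 001, 9 of the 21 passed, all higher and none macrophage-rich, beside 3.11% of all genes, and Hmox1 had an adjusted p of 1.5e-07. The same 2 numbers carried the macrophage RNA at 6 h, and its part in the result was not tested. Lysosomal genes had a median of 0.13 with all 28 estimates above 0 and none called. Without libraries 001 the median was 0.26 and 7 of the 28 passed, all higher, beside 3.11% of all genes. Of these 7, 6 were not macrophage-rich. For the 33 testable genes of the mesenchymal glioma state the median was -0.03, with none called.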

How the data were processed

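Total RNA of sorted cells was primed with oligo-dT and template switching, per the labels' protocols. The authors deposited raw counts per gene for 36 libraries in 12 groups of 3, with 29883 genes. The genome build mm10 is from the submitters' processing notes, and aligner, counter and strandedness of counting were not given in the sources used here. Depth is the total count per library.

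Counts were tested with edgeR 4.0.16 (R 4.3.3) by the robust quasi-likelihood test with TMM normalisation, filterByExpr and Benjamini-Hochberg adjustment at 0.05, on the 18 tumor cell libraries with the library number as a block. Differences from macrophages came from a fit to all 36 libraries, with the number within each cell type as the block. Macrophage levels come from that fit. The rule of the comparison set the number as a block, and residuals of same-numbered libraries correlated above 0.1 in all 3 pairs (0.438 to 0.786). Libraries 002 and 003 also correlated with each other's numbers (0.562 and 0.596), so a pairing of these by number is not shown. No replicates were duplicates. Standard errors are the log2 change over the square root of F. Levels are CPM after TMM, and marker sums are CPM without it. Pair values use a pseudocount of 1 CPM.

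Macrophage-rich genes have over 20 times the mean CPM in macrophages alone at 0 h, and over 1 CPM there. The macrophage share of a library is the median, over 50 such genes with at least 100 CPM in macrophages, of their level over that in macrophages.

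The comparison, the 36 functional gene lists and the marker lists were chosen with earlier results of these data known. The rule for named genes took called genes with at least 10 CPM in a group, the same direction in all 3 pairs, a proper symbol and no macrophage-rich level. Of these it took the 12 largest changes per direction, 4 or fewer members with the smallest p from every list that had 2 or more called, and a fixed set. Inhba, Rusc2, Arid5b, Ppip5k1, Dus2, Numa1, Dnajb4 and the 6 macrophage-rich genes fall outside it and were named after their values were seen. Promoters were the 250 bases before each RefSeq start. The alternatives tried were a fit without the block, DESeq2 1.42.0, RLE normalisation, non-robust dispersions, testing all genes without the filter, fitting the compared groups alone, dropping macrophage-rich or ribosomal genes, and dropping libraries or numbers in turn. The pipeline was tested on simulated data. Some single genes are not reported here, though counts and medians over lists include them.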

Additional observations from a re-analysis of the deposited data

Results flagged for a closer look

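The change from 0 h to 6 h differed between glioma cells alone and macrophages alone for 18 of the genes named here, by a test of the difference itself (log2 change in glioma cells minus that in macrophages, edgeR adjusted p under 0.05). Values above 0 mean a more positive change in glioma cells. For genes of cholesterol synthesis it was 1.93 for Hmgcs1, 1.23 for Idi1 and 0.93 for Sqle. For genes of sterol sensing and transport it was 1.72 for Insig1 and 1.53 for Stard4, and for fatty acid synthase, Fasn, it was 0.99. For the LXR targets Abca1 and Mylip it was -1.97 and -1.03. For Ppp1r15a it was -0.99, for the early transcription factors Jun, Egr2 and Atf3 it was -0.87, -2.38 and -2.11, and for Stat2, of the interferon response, it was 1.26. For the macrophage-rich genes it was 2.39 for Galnt6, 1.88 for Clec4e, 1.56 for Clec4d, 1.69 for Clec5a and 2.37 for Aoah. Beside these last 5, the summed level of 20 macrophage markers in the glioma libraries was 17.1, 1564 and 571 CPM at 6 h and 14.3, 335 and 446 CPM at 0 h, and its part in the result was not tested.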

How the results depend on the processing

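Of the 587 alternative values of the 35 called genes, 341 kept their call, 246 kept their direction but missed the threshold and 0 changed sign. The count of 35 became 188 with DESeq2, which gave 1319 genes no adjusted p, 54 with no low-count filter (28 of the 35 among them) and 21 with only the groups compared (11 of the 35). Without the replicate block 1 gene was called, and it was one of the 35. Leaving out libraries or numbers gave 0 to 856, and 807 without number 001 when macrophage-rich genes were not counted, a choice made after seeing the data. The count of 174 genes that differed between glioma cells and macrophages became 334 with DESeq2, 109 with no low-count filter, 14 without the replicate block and 0 to 528 with libraries left out. The count of 3819 between 24 h and 6 h became 1642 without the replicate block and 257 to 5449 with libraries left out. The count of 0 between cultures became 0 to 70 with libraries left out and stayed at 0 under the other alternatives, the one without the replicate block included. The difference in the macrophage marker sum, 452 CPM, ran from 29.2 CPM without 6 h library 002 to 803 CPM without 6 h library 001. The cause of these shifts was not tested, beyond the fewer libraries that enter when some are left out. Of 38 named genes that were not called, 5 were called under some alternative. With 3 libraries a group of 7964334 to 14094009 counts, the precision of low genes such as Egr3 and Galnt6 is limited by depth as well as by the spread between libraries.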
